A study of Mus musculus with 2 samples.

Results

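Open chromatin in later introns was examined in mouse regulatory T (Treg) cells without and with Tkt, the gene of transketolase, which moves carbon units between sugars in the non-oxidative arm of the pentose phosphate pathway. A later-intron region is a peak of the deposited lists whose annotation named an intron other than the first of a transcript. There were 2356 such peaks among the 19680 of the TKT cKO list and 5781 among the 34440 of the WT list, so 8137 of 54120 in all. The TKT cKO library came from Foxp3cre/+ TKTfl/fl females and the WT library from Foxp3cre/+ females. Both were C57BL/6 mice aged 7 weeks, called chimeric in the labels, and CD4+CD25+YFP+ cells were sorted from their spleen and lymph node. The WT mice thus carried the same Cre allele. Foxp3 is on the X chromosome, so in females with 1 Foxp3-Cre allele some of the Treg cells express Cre, and the YFP sort takes those. There was 1 library per genotype, so no difference between the genotypes could be set against replicate spread, no p-value is given, and the peaks of a gene are not replicates. Sequencing depth was unknown, and a peak missing from a list cannot be told from one below the caller's threshold.

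ATAC-seq, the assay used, reads open chromatin from where the Tn5 transposase can insert sequencing adapters. Introns are the transcribed stretches removed from RNA by splicing, and long introns of mammalian genes hold many enhancers, which are stretches of DNA that bind transcription factors and act on promoters at a distance. The first intron lies next to the promoter and often shares its open chromatin, while later introns lie deeper in the gene, where open regions include enhancers, alternative promoters and sites bound by CTCF, a factor that organises chromatin loops. The intron number is that of a single transcript chosen by the authors' annotation, so the same stretch can be a first intron of another transcript. The annotation gave peaks within 3 kb of a transcription start site (TSS) to the promoter class, so every later-intron peak lay more than 3 kb from the start it was assigned to.

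Some later-intron peaks nevertheless held an annotated start of another transcript. Of 32851 RefSeq windows (build GRCm38.p6) of 300 bases, from 250 before to 50 after a start, 38 overlapped a later-intron peak of the cKO list and 63 one of the WT list. Such windows touched 32 of 2277 cKO peaks and 55 of 5606 WT peaks on the chromosomes of the window table. There were 23 windows inside a later-intron peak in both lists, and 8 of these belonged to genes that are not predicted models. The windows below are examples of such an intronic start, and each held a motif match. A window not shown, that of Ipo11-lrrc70, had no match and 41.7% G+C. Letters run 5′ to 3′ on the strand of the transcript, and capitals mark matches, on either strand, to the motifs named for that window, none of which overlapped a match to another motif.

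Ssh2, in intron 2 of 14 of the gene for a cofilin phosphatase, chr11:77348030-77348329, + strand, with matches to the CTCF motif AGGGGGC and the SP/KLF motif GGGCGGG.

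Ssh2: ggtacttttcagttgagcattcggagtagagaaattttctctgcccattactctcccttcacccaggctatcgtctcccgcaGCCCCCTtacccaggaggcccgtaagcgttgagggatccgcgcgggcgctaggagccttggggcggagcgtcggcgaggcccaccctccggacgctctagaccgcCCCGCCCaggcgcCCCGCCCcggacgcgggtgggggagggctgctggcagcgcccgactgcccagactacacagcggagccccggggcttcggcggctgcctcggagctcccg

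Tnrc6b, in intron 4 of 24 of a gene for a scaffold of microRNA silencing, chr15:80798360-80798659, + strand, with a match to the NFAT motif TGGAAA.

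Tnrc6b: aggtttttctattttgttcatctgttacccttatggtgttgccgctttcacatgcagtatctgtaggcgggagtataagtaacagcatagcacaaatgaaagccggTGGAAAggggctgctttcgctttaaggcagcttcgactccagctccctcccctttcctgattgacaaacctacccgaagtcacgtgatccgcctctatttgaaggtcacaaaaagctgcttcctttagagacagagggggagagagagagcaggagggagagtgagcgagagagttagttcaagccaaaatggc

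Zbtb38, in intron 4 of 5 of a gene for a zinc finger protein that binds methylated DNA, chr9:96719801-96720100, - strand, with 2 matches to the ETS motif CCGGAAG.

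Zbtb38: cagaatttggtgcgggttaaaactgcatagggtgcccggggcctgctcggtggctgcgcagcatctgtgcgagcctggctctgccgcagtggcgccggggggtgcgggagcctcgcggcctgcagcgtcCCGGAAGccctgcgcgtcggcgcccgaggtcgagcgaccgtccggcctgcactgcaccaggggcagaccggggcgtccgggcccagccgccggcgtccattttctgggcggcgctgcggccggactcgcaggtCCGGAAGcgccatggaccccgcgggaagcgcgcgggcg

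Sema4d, in intron 2 of 16 of the gene for the semaphorin CD100, chr13:51756634-51756933, - strand, with matches to the E-box CAGCTG and the NFAT motif.

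Sema4d: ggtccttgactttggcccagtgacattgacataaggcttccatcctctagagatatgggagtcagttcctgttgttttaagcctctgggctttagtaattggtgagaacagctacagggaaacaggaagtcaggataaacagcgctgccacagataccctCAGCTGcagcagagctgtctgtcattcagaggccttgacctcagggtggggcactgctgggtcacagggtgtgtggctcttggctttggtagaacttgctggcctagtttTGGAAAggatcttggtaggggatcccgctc

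The peak over the Ssh2 start stood at score rank 521 in the cKO list and rank 2676 in the WT list, and both lay in the strongest score bin of their list. Ranks are positions within lists of different length and are not compared between them. The peak over the Tnrc6b start had 3093 bp and rank 2645 in the cKO list, and 3337 bp and rank 3815 in the WT list. The authors assigned neither peak to its own gene: the nearest starts they used were those of Gm12346, 54536 bp away in the cKO list, and of Gm49512, 85565 bp away. The Zbtb38 window had 74.7% G+C and 41 CpG dinucleotides, against a median of 52.7% and 7 over all 32851 windows, while the Sema4d window had 52.0% and 2. Over the 23 windows the median G+C was 53.0%. Matches to the NFAT motif stood in 7 of the 23 windows (30.4%), against 21.4% of all windows, and matches to the SP/KLF motif in 4 (17.4%), against 25.6%. The CTCF letters stood in 3 of 23 windows (13.0%), against 10.6% of all, and the ETS letters in 1 (4.35%), against 8.86%. The other motifs searched were RUNX (TGTGGTT), in 3 of the 23 windows (13.0%) against 5.27% of all windows, AP-1 (TGANTCA), in 2 (8.70%) against 7.81%, TCF/LEF (ATCAAAG), in 2 (8.70%) against 3.73%, NF-kB, in 7 (30.4%) against 20.7%, and STAT (TTCNNNGAA), in 2 (8.70%) against 8.30%. The E-box stood in 4 (17.4%) against 16.3%, and the forkhead letters (TGTTTAC) in none of the 23 (0%) against 3.65%. The letters AGATAAG, bound by factors of the GATA family, stood in none of the 23 (0%) against 3.04%. These counts are too few to set the intronic starts apart, and a match is a description of letters, not of a bound site.

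Markers of cell types were counted in the promoter class. The share of all genes with a promoter peak was not counted, so these counts are a description and not a test of the labels. Of 9 T cell markers, 8 had a promoter peak in the cKO list (all but Cd3g) and 7 in the WT list (all but Cd3g and Cd5). Of 7 Treg markers 6 had one in each list (all but Tnfrsf18). Of 10 B cell markers 1 had one in the cKO list and 3 in the WT list, and of 13 myeloid and dendritic markers 2 had one in the cKO list and 3 in the WT list. Of 9 CD8 T and NK markers 4 had one in the cKO list and 3 in the WT list, and of 10 erythroid and stromal markers 4 in the cKO list and 5 in the WT list. What such cells add to the later-intron peaks was not tested. The later-intron peaks of these lineage genes are counted below. Tkt itself had a single peak in each list, over its promoter, at rank 6366 in the cKO list and 4256 in the WT list. Neither list held a later-intron peak in Tkt, so these regions do not bear on the deletion. The labels name females, and 5 later-intron peaks of the cKO list and 5 of the WT list were placed on the Y chromosome. All lay in intron 3 of 3 of the predicted gene Gm47283, between positions 90797122 and 90813118. They were out of 9 cKO and 8 WT peaks of any class on that chromosome. Whether this stretch is also present on the X chromosome was not tested, so these peaks do not bear on the sex named.

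Later introns held a smaller share of the open regions in the cKO list than in the WT list. They made up 11.97% of cKO peaks (95% exact interval 11.5 to 12.4%) and 16.8% of WT peaks (16.4 to 17.2%), and covered 2.22 Mb in the cKO list and 5.19 Mb in the WT list. The intervals here and below cover counting error only. When the WT list was cut to its 19680 strongest peaks, the number of the cKO list, 2255 of them (11.46%) lay in later introns, so at an equal number of peaks the lower share was that of WT and it differed by less than 1 point. For every first-intron peak there were 1.54 later-intron peaks in the cKO list, 1.77 in the WT list and 1.63 in the shortened WT list.

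Later-intron peaks were mostly weak. The authors gave each peak a score whose meaning is not stated, and it was used only to rank peaks within their own list. The median later-intron peak stood at percentile 29.1 of the cKO scores and 33.9 of the WT scores, while promoter peaks had medians of 64.1 in the cKO list and 71.2 in the WT list. With each list cut into 10 equal bins of score, later introns made up 21.5% of the weakest bin of the cKO list and 26.7% of that of the WT list. In the strongest bin they made up 1.58% of the cKO list (31 peaks) and 1.45% of the WT list (50 peaks). First-intron peaks were placed much alike, with medians of 30.6 in the cKO list and 36.9 in the WT list. Weak score was thus shared by both intron classes and by distal intergenic peaks (33.5 in the cKO list and 39.4 in the WT list).

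**Figure D1:**
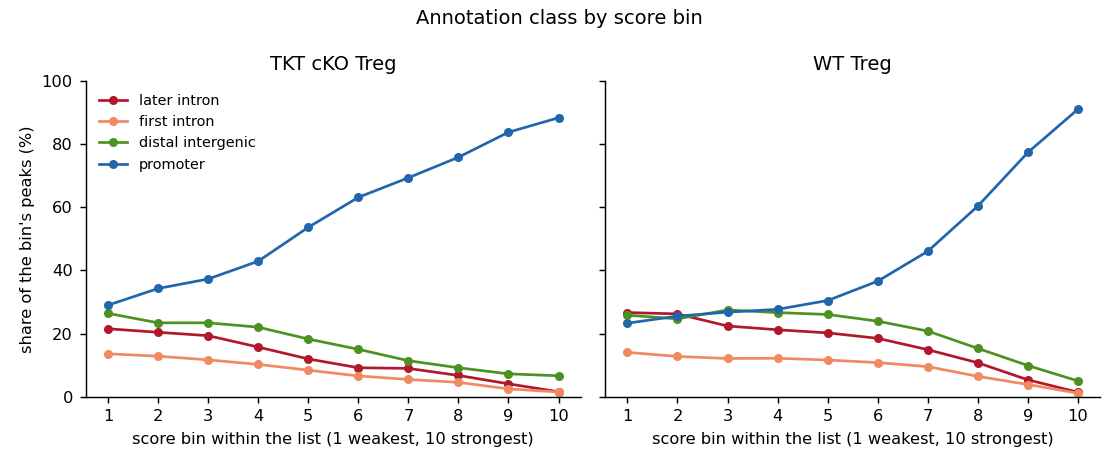
Share of each score bin (y axis, %) held by later-intron, first-intron, distal intergenic and promoter peaks, against the score bin within the list (x axis, 1 weakest, 10 strongest), for the TKT cKO list (left) and the WT list (right). The later-intron share went down to 1.58% in the strongest cKO bin and 1.45% in the strongest WT bin, where promoter peaks prevailed.

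Most later-intron regions of the cKO list were also open in the WT list, and the reverse held for a minority. Of the 2356 cKO peaks, 2237 were met by a WT peak over at least 1 bp (94.9%, 94.0 to 95.8%), against 97.6% of cKO peaks of all classes. Of the 5781 WT peaks, 2151 were met by a cKO peak (37.2%, 36.0 to 38.5%), against 56.1% of WT peaks of all classes. At an equal number of peaks, with the WT list cut to its strongest 19680, the shares were 69.1% of cKO and 69.3% of WT later-intron peaks. In the full lists, without an overlap were 119 cKO peaks (2.36% of all cKO peaks lacked one) and 3630 WT peaks (43.9% of all WT peaks lacked one). The WT share was 44.5% for first introns, 42.9% for distal intergenic peaks and 74.3% for promoters, and the cKO share was 96.4%, 95.1% and 99.2% for those classes.

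The overlap of a later-intron peak followed its score. In the WT list the share with a cKO overlap was 6.20% of the later-intron peaks in the weakest bin, 41.5% in bin 5, 77.2% in bin 7 and 99.5% in bin 9. In the strongest bin the share was 96.0% of 50 peaks. In the cKO list the unshared later-intron peaks fell in the 4 weakest bins alone (86, 29, 3 and 1 peaks from the weakest up), and in the 6 upper bins 0 of 839 later-intron peaks lacked a WT overlap, which allows a share of up to 0.358%.

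At like score rank, WT later-intron peaks were found again less often than first-intron and promoter peaks, and about as often as intergenic ones. First-intron peaks, weighted to the score bins of the later-intron peaks, had a share of 42.0%, against the 37.2% observed, a difference of -4.75 points (95% interval -6.44 to -3.07). The difference from promoter peaks was -7.24 points (-8.56 to -5.92). The difference from distal intergenic peaks was -0.48 points (-1.82 to 0.85), so it was smaller than the counting error, and the interval allows a gap of either sign. Matching on width as well as on score gave -3.31 points (-4.90 to -1.71) for first introns and -5.08 for promoters. From the cKO side the same difference was -1.35 points (-2.66 to -0.04) for first introns and 0.46 points for intergenic peaks, and with width matched as well the one for first introns was -1.30 (-2.78 to 0.19). All of these compare classes of peaks within 1 pair of libraries.

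**Figure D2:**
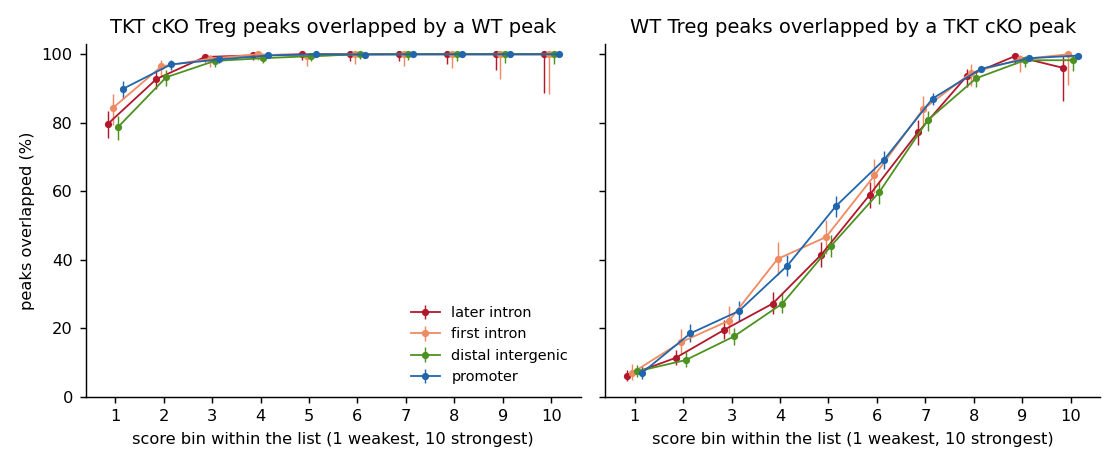
Share of peaks overlapped by at least 1 bp by a peak of the other list (y axis, %, with exact 95% intervals), against score bin (x axis), for TKT cKO peaks (left) and WT peaks (right) in 4 classes with at least 20 peaks a bin. WT later-intron peaks went up with score, from 6.20% in the weakest bin to 99.5% in bin 9.

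Shared later-intron peaks were wider and stronger than unshared ones in both lists. In the cKO list the 2237 shared peaks had a median of 875 bp and percentile 30.9, and the 119 unshared ones 618 bp and percentile 5.43. In the WT list the 2151 shared peaks had 1142 bp and percentile 57.1, and the 3630 unshared ones 649 bp and percentile 22.5. There were 714 unshared WT peaks narrower than the narrowest peak of the cKO list (465 bp), against 42 of the shared ones. The narrowest WT peak had 360 bp, so the lists differed in the smallest region they could hold.

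The partner of a shared peak was nearly always in the same intron. Of the 2237 shared cKO peaks, 2124 overlapped a WT peak annotated to the same intron, 100 one in an exon and 6 one of the promoter class. The overlap had a median of 808 bp. Score percentiles of the partners ran together, with a Spearman correlation of 0.80 as a description, and the WT peak was the wider one in 1758 of the 2151 WT pairs.

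Width of all later-intron peaks was close in both lists, at a median of 851.5 bp in the cKO list (465 to 3923 bp) and 805 bp in the WT list (360 to 4179 bp). The WT share went up with width, from 5.46% of peaks up to 500 bp to 83.8% of those over 1500 bp. Later-intron peaks of the same score bins had shares of 14.1% and 63.8%, a narrower range. Of the cKO peaks over 1500 bp, 0 of 227 lacked a WT overlap, which allows a share of up to 1.32%. The widest regions assigned to genes that are not predicted models were in Tmprss6 (2997 bp), which encodes a liver protease, Fgd3 (2819 bp, assigned to Susd3) and Zdhhc18 (2778 bp) in the cKO list, and in Fyn (3577 bp), Bcl11b (3314 bp) and Bach2 (3242 bp) in the WT list. Of the WT genes named, Fyn encodes a T cell kinase and the other genes transcription factors of T cells. Each of these 6 regions was overlapped in the other list. The ranking passed over peaks assigned to predicted models, so the widest peaks of each list (3923 bp in cKO, 4179 bp in WT) are not named. Also passed over was the peak over the Tnrc6b start, at 3093 bp in the cKO list and 3337 bp in the WT list.

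Intron 2 held the largest group of later-intron peaks, 769 (32.6%) in the cKO list and 1704 in the WT list. The WT share was 41.8% in intron 2, 40.5% in intron 3, 34.7% in introns 4 to 5, 32.6% in introns 6 to 10 and 33.8% from intron 11 on. Later-intron peaks of the same score bins had 38.9%, 38.0%, 38.2%, 36.0% and 33.8% in that order. The observed share stood above that of like scores in intron 2 (39.4 to 44.2%), below it in introns 4 to 10, and level with it from intron 11 on. The interval for intron 3 (37.4 to 43.7%) held the like-score value. Width was not matched, with a WT median of 844.5 bp in intron 2 and 776 bp in introns 6 to 10. The cKO share was 95.3% in intron 2, against 95.4% at like score. In introns 6 to 10 it was 94.9%, against 94.9%. Last introns of transcripts held 307 cKO peaks (13.0%) and 738 WT peaks (12.8%), of which 91.5% of the cKO peaks and 37.4% of the WT peaks were overlapped, against 94.5% of cKO and 37.3% of WT peaks at like score.

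**Figure D3:**
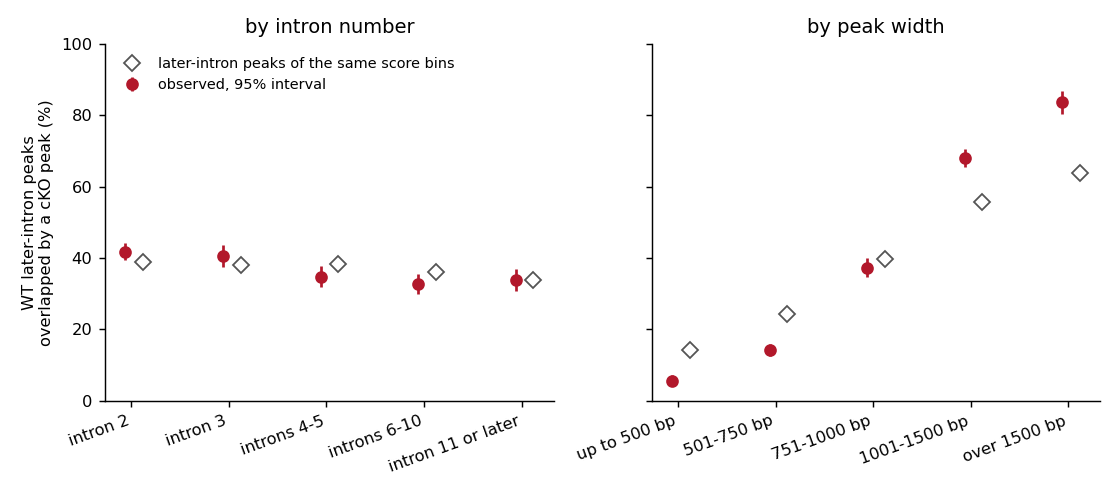
Share of WT later-intron peaks overlapped by a TKT cKO peak (y axis, %), by intron number (left) and by peak width (right). Filled points are observed shares with exact 95% intervals, and open diamonds the share of later-intron peaks of the same score bins. The observed shares ran between 32.6% and 41.8% over intron number, and between 5.46% and 83.8% over width.

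Later-intron peaks lay far from the starts they were assigned to. The median distance was 18859 bp in the cKO list (3017 to 311115 bp) and 18482 bp in the WT list (3010 to 310900 bp), against 12066.5 bp in the cKO list and 11657.5 bp in the WT list for first introns. Upstream of the assigned start were 36.9% of cKO peaks and 36.1% of WT peaks, and beyond 50 kb were 358 cKO and 898 WT peaks. The farthest regions assigned to genes that are not predicted models were, in the cKO list, in Smyd3 (277079 bp, a methyltransferase gene), Prkg1 (254569 bp, assigned to Cstf2t) and Ext1 (244997 bp, heparan sulfate synthesis). The farthest of the WT list were in Rad51b (302558 bp, no cKO overlap), Smyd3 (276902 bp) and Prkg1 (254543 bp). Among cKO peaks more than 100 kb from the assigned start, 83 of 96 had a WT overlap (86.5%, 78.0 to 92.6%), against 93.5% for later-intron peaks of the same score bins. Of the distance groups taken in the cKO list, this one stood furthest from its like-score value. WT peaks at that distance did not share this, with 81 of 219 overlapped (37.0%, 30.6 to 43.8%), against 35.3% at like score.

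The gene assigned to a peak and the gene whose intron held it differed for most regions. They were the same for 1040 cKO peaks (44.1%) and 2506 WT peaks (43.3%). The assigned gene was a predicted model for 44.1% of cKO and 44.0% of WT peaks, and the intron's gene for 10.0% of cKO and 9.17% of WT peaks. All 16 WT peaks within Ikzf2, which encodes Helios, a zinc finger factor of Treg cells, were assigned to predicted genes (Gm28112, Gm29112 or Gm29114). Of 19 WT peaks within Wwox, an oxidoreductase gene at a fragile site, 1 was assigned to Wwox and 16 to Gm22556. Of the leading genes, 6 of the cKO list and 5 of the WT list were the same by assigned symbol and by intron.

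By assigned symbol, Foxp1, Bach2 and Sept9 led the cKO list with 10 later-intron peaks each. Foxp1, a forkhead factor of quiescent T cells, had 10 in the cKO list and 16 in the WT list, and 10 of the 16 had a cKO overlap, where the overlap of all WT peaks in the same score bins gives 7.74. For each gene from here on, overlapped peaks are those of the WT list unless cKO peaks are named, and the number at like score is taken in the same way. It includes promoter peaks, which were overlapped more often than later-intron peaks at like score. Later-intron peaks alone would thus mostly give a lower number, and small gaps are not read as a difference. Bach2, a repressor that favours Treg over effector fate, had 10 in the cKO list and 12 in the WT list, with 10 overlapped against 7.41 at like score. Sept9, which encodes a septin of the cytoskeleton, had 10 in the cKO list and 11 in the WT list, with 9 overlapped against 6.69. Bcl11b, a zinc finger factor of T cell identity, had 9 cKO and 12 WT peaks, with 9 overlapped against 5.46. Arid5b, a DNA-binding chromatin cofactor, had 8 cKO and 14 WT peaks, with 8 overlapped against 7.49, so its count was close to that of like scores.

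In other leading symbols less than 50% of the WT regions had a cKO overlap, and in most of these the count was close to that at like score. Inpp4b, which encodes a phosphoinositide phosphatase, had 7 cKO and 15 WT peaks, with 7 overlapped against 6.94 at like score. St6gal1, a sialyltransferase gene, had 5 cKO and 12 WT peaks, with 5 overlapped against 4.54. Celf2, a splicing regulator, had 6 cKO and 12 WT peaks, with 5 overlapped against 4.68, and the microRNA gene Mir7219 had 7 cKO and 14 WT peaks, with 6 overlapped against 6.45. Sgms1, a sphingomyelin synthase gene, had 7 in the cKO list and 16 in the WT list, with 5 overlapped against 7.99. Mllt3, a reader of acylated histones, had 1 later-intron peak in the cKO list and 12 in the WT list, with 1 overlapped against 2.71. The remaining genes named by the rule were Arhgef3 (7 cKO and 11 WT peaks), Sh3kbp1 (7 cKO and 10 WT), Map4k4 (6 cKO and 8 WT), Msi2 (6 cKO and 8 WT), Tiam1 (6 cKO and 8 WT) and Ski (6 cKO and 7 WT).

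By the gene whose intron held the peak, long genes led. Inpp4b had 15 peaks in the cKO list and 34 in the WT list. A cKO peak overlapped 14 of the 34, where like scores give 14.6. Rad51b, a homologous recombination gene, had 10 in the cKO list and 25 in the WT list, with 10 overlapped, where like scores give 11.01. Foxp1 had 12 cKO and 20 WT peaks, with 12 overlapped (9.89 at like score), and Arhgef3, a guanine nucleotide exchange factor gene, 11 cKO and 19 WT peaks, with 11 overlapped (9.67). The RefSeq lengths were 792 kb for Inpp4b, 551 kb for Rad51b and 597 kb for Foxp1, against a median of 67.2 kb over the 2873 genes with a length, and 206 kb over genes with 5 or more WT peaks. Over those 2873 genes the number of WT peaks and the length ran together with a Spearman correlation of 0.44, as a description.

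In Cblb, Bach2 and Bcl11b most of the WT intronic regions had a cKO overlap. Cblb, a ubiquitin ligase that raises the threshold of T cell activation, had 11 peaks in the cKO list and 15 in the WT list, with 11 overlapped against 7.87 at like score. Bach2 had 11 cKO and 14 WT peaks, with 11 overlapped against 8.18, and Bcl11b 9 cKO and 12 WT peaks, with 9 overlapped against 5.46. Bcl11b was also dense, with 12.8 WT peaks per 100 kb of gene, against 4.29 in Inpp4b and 8.48 in Cblb. In Bach2, 8 of the cKO peaks lay in intron 2, among them chr4:32351225-32352375 at rank 2126 of the cKO list, which faced the WT peak chr4:32351102-32352422 at rank 4307. In Bcl11b the cKO peak chr12:107920174-107922073 in intron 3 had rank 6508, and the WT peak chr12:107918914-107922227 rank 12486.

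In Prkca and Ikzf2 few WT regions had one. Prkca, which encodes protein kinase C alpha, had 5 later-intron peaks in the cKO list and 22 in the WT list, with 5 overlapped against 8.13 at like score, and all 5 lay in intron 2. The strongest of them, chr11:108271479-108273968, had rank 780 in the cKO list, and its WT partner chr11:108271340-108273992 rank 4029. In introns 3 and 5 of Prkca the WT list alone had peaks. Ikzf2 had 5 in the cKO list and 16 in the WT list, with 5 overlapped against 3.26 at like score, and these WT peaks were weak, with a median percentile of 18.6. The count for Ikzf2 was thus above that of WT peaks of like score, and the one for Prkca below it.

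Among the other leading genes, Thada had 10 later-intron peaks in the cKO list and 12 in the WT list, with 9 overlapped against 6.38 at like score. Arid1b, a subunit gene of the BAF remodelling complex, had 8 cKO and 16 WT peaks, with 8 overlapped against 6.44. Wwox (9 cKO and 19 WT peaks, with 9 overlapped against 9.58) was less than 1 peak below the number at like score. So were Celf2 (7 cKO and 17 WT peaks, with 6 against 6.23) and Ldlrad4, a gene of TGF-beta signalling (8 cKO and 16 WT peaks, with 7 against 7.23). These genes are not read as lower, since the number at like score includes promoter peaks. Those further below were Sgms1 (7 cKO and 17 WT peaks, with 5 overlapped against 8.2), Msi2, an RNA-binding protein gene (8 cKO and 17 WT peaks, with 7 against 9.73), and Nsmce2, a SUMO ligase gene (7 cKO and 17 WT peaks, with 6 against 7.70). Differences of this size rest on a few peaks a gene.

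**Figure D4:**
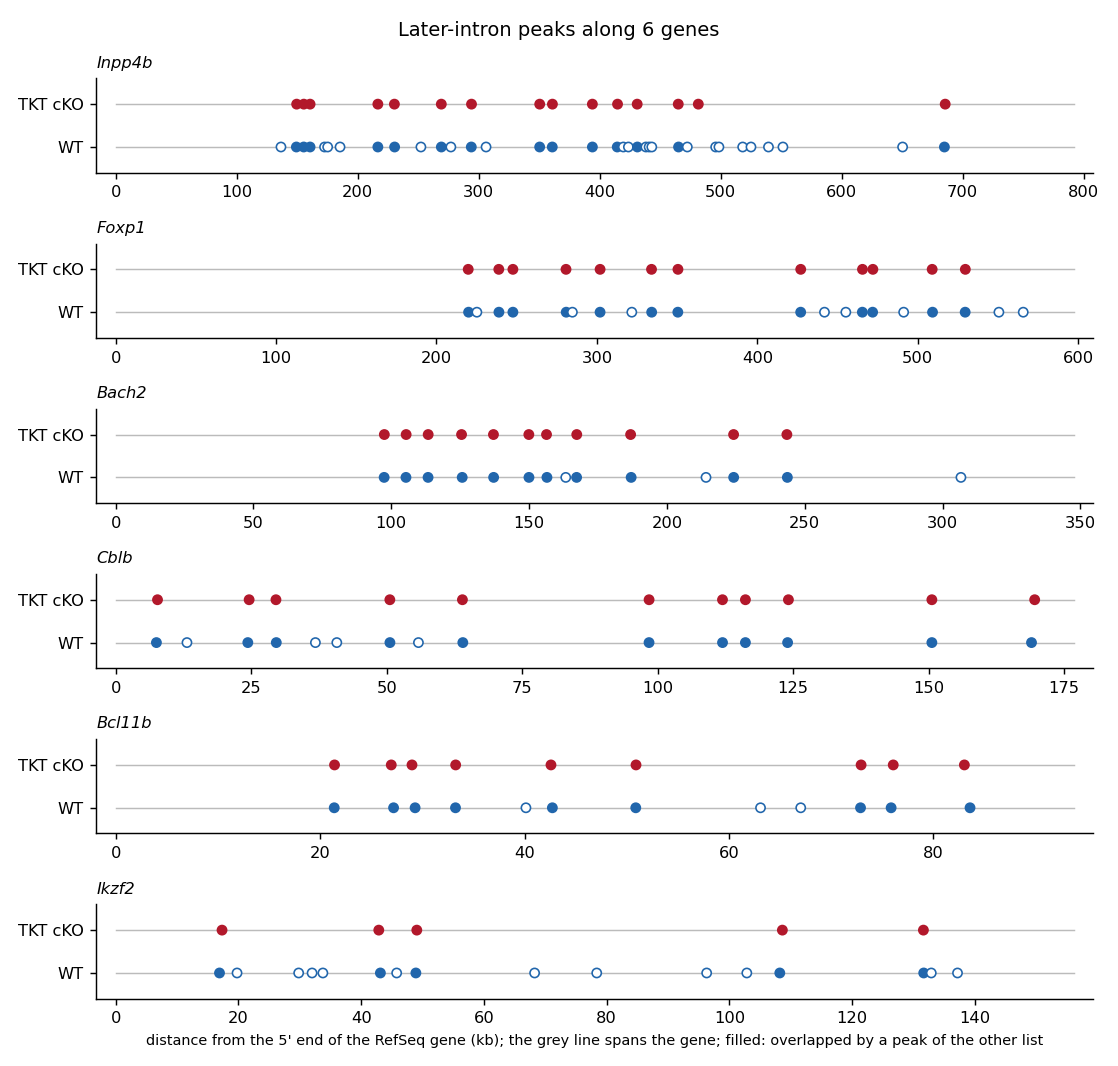
Later-intron peaks along Inpp4b, Foxp1, Bach2, Cblb, Bcl11b and Ikzf2, as distance from the 5′ end of the RefSeq gene (x axis, kb), with TKT cKO peaks in the upper row and WT peaks in the lower row of each gene. Filled points were overlapped by a peak of the other list. Every cKO peak of these genes was overlapped, while open WT points were many in Inpp4b (20 of 34) and Ikzf2 (11 of 16).

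Across all such genes the share overlapped was close to that of WT peaks of all classes at like score. The 220 genes with 5 or more WT later-intron peaks held 1744 of them, of which 785 were overlapped (45.0%). WT peaks of all classes had 43.6% at like score. Those include promoter peaks, which were overlapped more often than later-intron peaks at like score. At least 50% of the WT peaks were overlapped in 94 of the 220 genes. In 4 of them every WT peak was overlapped (Ikzf3 and Eps15l1 with 5 each, Arhgef10 with 6 and the model CT030665.2 with 9), and in 4 none was (Arntl, Cd226 and Gm44196 with 5 each, and Tenm4 with 6). Ikzf3 encodes Aiolos, a lymphoid zinc finger factor, and Arntl the clock factor Bmal1. These genes were singled out after their values were seen.

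**Figure D5:**
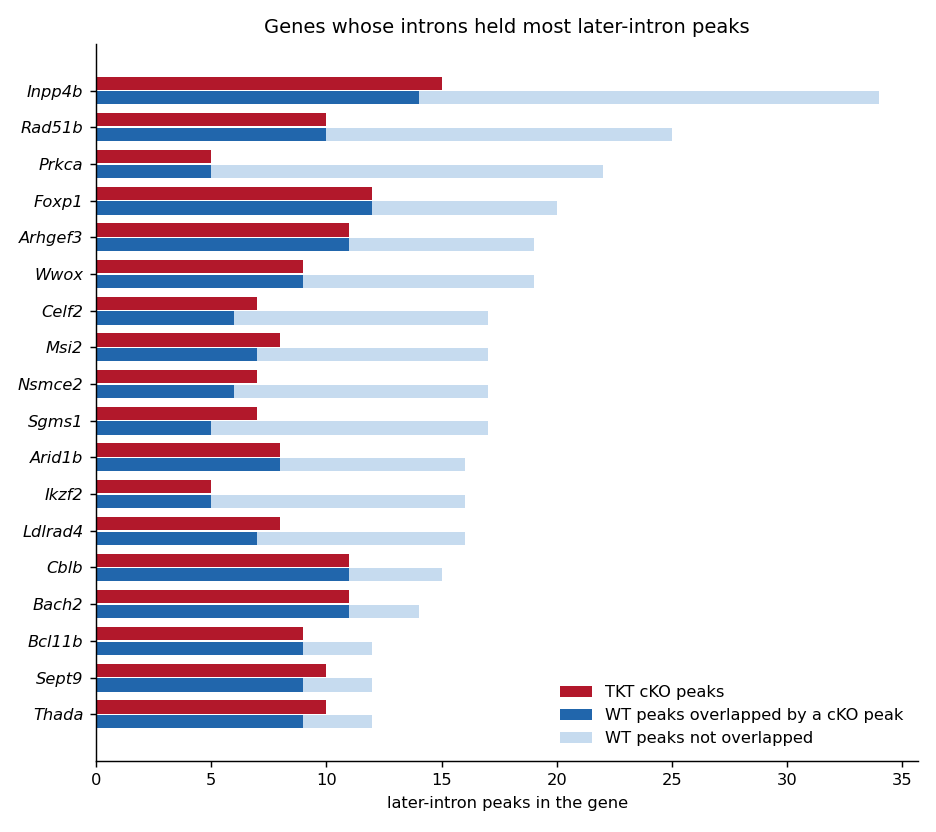
Number of later-intron peaks (x axis) in the genes whose introns held most of them (y axis), with TKT cKO peaks in the upper bar and WT peaks in the lower bar, split into those overlapped by a cKO peak and those not. Inpp4b led with 15 cKO and 34 WT peaks, and in Prkca 5 of 22 WT peaks were overlapped. Fgfr2 is not drawn, since its peaks lay outside the RefSeq gene.

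A caution holds for 1 leading name. The annotation placed 6 cKO and 16 WT peaks in intron 2 of an Fgfr2 transcript, but 0 of them lay within the RefSeq span of Fgfr2 (104 kb), and none was assigned to that gene. Where the intron's gene had a RefSeq entry, 2200 of 2277 cKO peaks (96.6%) and 5463 of 5619 WT peaks (97.2%) lay within its span. After Fgfr2, Rasgef1b had most peaks outside it, 2 in the cKO list and 10 in the WT list.

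Single introns concentrated many regions. The cKO peaks fell in 1873 introns and the WT peaks in 4302, of which 1589 cKO and 3558 WT introns held a single peak and 26 cKO and 86 WT introns held 5 or more. Intron 8 of 8 of Wwox had 9 peaks in the cKO list and 18 in the WT list, with 9 of the WT peaks overlapped. Intron 2 of Inpp4b had 10 cKO and 17 WT peaks, with 10 overlapped, and intron 3 of Ikzf2 had 13 WT peaks, with 4 overlapped.

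Of 1422 genes with a later-intron peak in the cKO list and 2966 in the WT list, 1336 were in both, 86 in the cKO list alone and 1630 in the WT list alone. The shared genes were thus 94.0% of the cKO genes and 45.0% of the WT genes. More peaks in the cKO list than in the WT list were found in 116 genes. The 119 cKO peaks without a WT overlap were scattered over 111 genes, and 3 genes held more than 1: Gm21847 with 7, and Mitf and Sgms1 with 2 each. The 7 peaks of Gm21847, a predicted gene among copies of the Speer4 family, lay in intron 2 of 2 at chr5:15588851-15646107. They were narrow, at 536 to 643 bp, and weak, at ranks 16656 to 19542 of 19680. The WT list used here had no peak of any class in the 3802 kb between positions 12507417 and 16309754 of that chromosome, a stretch in which the cKO list had 13. Reads from such gene copies can be hard to tell apart, so these peaks are uncertain.

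In all, 10 lists of genes were counted by the gene whose intron held the peak, as a description beside the share of WT peaks of like score. The like-score shares below are those of WT peaks of all classes. WT later-intron peaks alone had lower ones, 41.6% for T cell transcription factors and 40.8% for T cell receptor signalling. They had 37.2% for chromatin regulators and 34.5% for Treg identity. A gene may be in more than 1 list. Transcription factors of T cells (56 genes) had later-intron peaks in 23 genes in the cKO list and 28 in the WT list. They held 88 cKO peaks, 87 of them overlapped, and 170 WT peaks, of which 89 were overlapped (52.4%, 44.6 to 60.1%), against 44.7% at like score. Beside Foxp1, Bach2 and Bcl11b, the list held Runx1, a partner of Foxp3, with 6 cKO and 12 WT peaks. Of these WT peaks 6 were overlapped, against 5.28 at like score. Nfatc1, the calcium-driven factor, had 4 cKO and 9 WT peaks, with 4 overlapped against 3.27 at like score. Below like score were Rora (3 cKO and 9 WT peaks, with 3 overlapped against 4.26) and Stat4 (1 cKO and 8 WT peaks, with 1 against 4.38).

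Genes of T cell receptor signalling (50 genes) had later-intron peaks in 25 genes in the cKO list and 30 in the WT list. They held 83 cKO peaks, 81 overlapped, and 177 WT peaks, 80 overlapped (45.2%, 37.7 to 52.8%), against 43.6% at like score. Itpr1, the calcium channel of the endoplasmic reticulum, had 7 in the cKO list and 15 in the WT list, with 7 overlapped against 6.13 at like score. Fyn, a Src family kinase, had 8 cKO and 13 WT peaks, with 8 overlapped against 6.72. Prkch, a protein kinase C gene, had 6 cKO and 13 WT peaks, with 6 overlapped against 6.83. Ptprc, which encodes the phosphatase CD45, had 4 cKO and 10 WT peaks, with 4 overlapped against 3.09.

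Chromatin regulators (54 genes) had peaks in 21 genes in the cKO list and 33 in the WT list, with 54 cKO peaks, 53 overlapped, and 128 WT peaks, 52 overlapped (40.6%), against 40.1% at like score. Hdac4, a class II deacetylase gene, had 8 cKO and 12 WT peaks, with 8 overlapped against 6.93 at like score. Jarid2, a cofactor of Polycomb, had 3 cKO and 11 WT peaks, with 3 overlapped against 4.66. Kat6b, a histone acetyltransferase gene, had 1 cKO and 7 WT peaks, with 1 overlapped against 2.53.

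Of the genes of Treg identity (36 genes), peaks were found in 12 in the cKO list and 15 in the WT list, with 19 cKO peaks, 18 overlapped, and 44 WT peaks, 17 overlapped (38.6%, 24.4 to 54.5%), against 37.6% at like score. Ikzf2 held 16 of the 44. Nrp1, the receptor neuropilin-1, had 3 in the cKO list and 9 in the WT list, with 2 overlapped against 2.92 at like score. Entpd1, the ectonucleotidase CD39, had 1 cKO and 2 WT peaks, with 1 overlapped against 0.79. Swap70 had 2 in each list, both overlapped, and the checkpoint receptor genes Havcr2 and Tigit had 0 in the cKO list and 2 each in the WT list. Foxp3, Il2ra, Ctla4, Icos, Il10, Tgfb1, Tnfrsf18 and Ikzf4 had no later-intron peak in either list.

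The pentose phosphate pathway list (17 genes) held 0 cKO and 2 WT later-intron peaks, 1 annotated to H6pd and 1 to Pgm2, and neither was overlapped. The Pgm2 peak, on chromosome 4, lay outside the RefSeq span of the gene of that symbol, so its place in this list is uncertain. For the lists of other cells, gene length was not matched and the share over all genes was not counted. Their counts thus do not set them apart from the Treg and T cell lists. The B cell list had 0 genes with a peak in the cKO list and 1 in the WT list (Pax5), the myeloid list 0 in the cKO list and 2 in the WT list (Flt3 with 2 peaks and Spi1 with 1, none overlapped), and the CD8 T and NK list 0 in both. Of the erythroid and stromal list Pecam1 alone had peaks, 3 in each list, all overlapped. A list of 36 neural genes with long introns had peaks in 4 genes in the cKO list and 6 in the WT list, 5 cKO and 8 WT peaks in all.

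The strongest later-intron region was in both lists the same, intron 2 of the model AC173344.1, at chr17:13550707-13553103 and rank 7 of the cKO list, and chr17:13550696-13553126 and rank 12 of the WT list. Among peaks assigned to genes that are not predicted models, the one in intron 4 of Sik3, a salt-inducible kinase gene, came first in the cKO list, at chr9:46175100-46176864 and rank 218, with its WT partner at rank 635. The gene assigned to it was Apoa1, at a distance of -51716 bp in the cKO list. In the cKO list it was followed by Setd1b, a histone H3 lysine 4 methyltransferase gene (rank 510), Rnf43, a ubiquitin ligase gene of Wnt signalling (rank 601), Pde4d, a cyclic AMP phosphodiesterase gene (rank 749), and Prkca (rank 780). In the WT list Pde4d had rank 830, Rnf43 rank 1437 and Hivep1, a zinc finger gene, rank 1478. Strong later-intron regions were few: 1 peak of the cKO list and 1 of the WT list stood in the first 100 ranks, and 16 of the cKO list and 6 of the WT list in the first 1000.

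In the strongest WT bin 2 of 50 later-intron peaks lacked a cKO overlap: a 465 bp peak at rank 297 in the model Gm36264, assigned to Gtpbp4, and a 372 bp peak at rank 310 in intron 2 of Cdk8, the kinase of the Mediator complex, at chr5:146260984-146261355. The next peaks assigned to genes that are not predicted models were in Ldlrad4, a regulator of TGF-beta signalling (intron 3, assigned to Mir7219, 795 bp, rank 7605), Cdk6, a cell cycle kinase (chr5:3383284-3384382 in intron 2, 1099 bp, rank 8100), a peak assigned to Rtp3 (436 bp, rank 8335) and Tspan13 (intron 5, 886 bp, rank 8493). Of these 6 peaks, those in Cdk6 and Tspan13 were wider than the WT later-intron median of 805 bp, and the other 4 were narrower. The strongest cKO regions without a WT overlap all stood in the 4 weakest score bins of their list. Those assigned to genes that are not predicted models were in Afap1 (intron 11, assigned to H2af-ps, rank 13504), Plaur, the urokinase receptor gene (intron 3, rank 15611), Arl6 (rank 16017), Tle3, a Groucho corepressor gene (rank 16113), and Ptger3, a prostaglandin E2 receptor gene (rank 16519).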

How the data were processed

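Each deposited list holds the ATAC-seq peaks of 1 library (2 in all), mapped to mm10, per the submitters' processing notes, which name Trimmomatic, FastQC, BWA and MACS2. Versions, caller settings, read shift and duplicate handling were in no source used here. The authors deposited for each peak its position, width, a score of unstated meaning, an annotation, an assigned gene and its distance to a start. Read totals were not used here, so depth is unknown. Intron, host gene and number were read from the annotation text. Overlap of at least 1 bp was computed with pandas 2.3.3, checked against bedtools 2.31.1 (0 differences), and shares have exact 95% intervals from SciPy 1.17.1. Like-rank shares weight 10 score bins. They were tried on simulated overlaps whose shares were less extreme than those of the real bins and even within a bin. Score differences inside a bin were thus not tried by the simulation. Alternatives were 20 bins, score with width, overlap of 50% of the shorter peak, stronger peaks, equal list lengths, autosomes and merging within 500 bp. The genes named are those with most peaks, the strongest, strongest unshared, farthest and widest regions, and leading list members, and predicted models were passed over in ranking. The members and lists were chosen with earlier results of these data known. Names by the intron's gene, single introns and Gm21847 were added after values were seen. Central sequences of peaks were not analysed here.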

Additional observations from a re-analysis of the deposited data

How the results depend on the processing

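With overlap of 50% of the shorter peak, 93.3% of cKO later-intron peaks were overlapped. Above the median score of each list the shares were 99.2% for cKO and 32.8% for WT, over 603 and 1758 peaks. With the WT list cut to its strongest peaks they were 69.1% for cKO and 69.3% for WT. Counted by the intron's gene, the highest number in the WT list was 34 in place of 16. The other 18 values kept their direction, and counts among them stayed within 1.5 times. The lists give no depth, so weak later-intron peaks limit every count here. No paired analysis was possible because there was 1 library per genotype, which also leaves no replicate to drop.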
